A study of Mus musculus with 13 samples.

Results

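The interferon-induced genes are a group of antiviral and regulatory genes that cells switch on when they sense interferon. The group was defined as 43 genes by symbol, of which 41 were among the 32285 genes of the count matrices. The remaining Mx1 and Mx2 were not analysed here. Members were read in mouse mammary gland fibroblasts, as unique molecular identifier (UMI) counts per 1000000 UMIs, summed over the fibroblast barcodes of a library (CPM), and as the share of fibroblasts in which 5 or more members were detected. A barcode counted as a fibroblast when it held 500 to 7500 genes, at most 10% mitochondrial UMIs and at least 50 UMIs of Dcn, Lum and Col1a2 per 10000, with no UMI of 6 genes that mark other cells (Epcam, Pecam1, Rgs5, Sox10, Ptprc and Myog). In all, 100523 of 120355 barcodes in 13 libraries met this rule.

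Type I interferons such as interferon beta, the product of Ifnb1, bind the receptor chains Ifnar1 and Ifnar2 on the cell surface. The kinases Jak1 and Tyk2 then phosphorylate signalling factors such as Stat2, which join Irf9 and bind a DNA element named the interferon-stimulated response element (ISRE) upstream of target genes. Fibroblasts are known both as producers of interferon beta and as cells that respond to it.

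The study profiled mammary fibroblasts by 10x Genomics 3′ single-cell RNA sequencing across development, hormone exposure and a tumour model. The stage libraries held sorted Lineage–CD24– stromal cells of wildtype C57BL/6 females at puberty (4 weeks old), in the virgin adult (9 weeks old), at day 14.5 of pregnancy, day 10 of lactation and day 4 of involution, with 1 library each that pooled 2 females. The hormone libraries came from 9-week-old wildtype C57BL/6 females that received pellets of medroxyprogesterone acetate and estradiol (MPA+E) or placebo, sorted in the same way, with 2 libraries per arm. Hyperplastic glands and mammary tumours came from 2 raGFP-Wnt1 females (Pdgfra-GFP KI/+ MMTV-Wnt1 T/+, C57BL/6 FVB mixed background), aged 45 weeks (number 1) and 17 weeks (number 2), each giving a hyperplasia and a tumour library of sorted Lineage–GFP+ cells. In these mice the MMTV promoter drives Wnt1 in the mammary epithelium, and GFP marks cells that express Pdgfra. No wildtype library of the mixed background, reporter, sort or ages was analysed here.

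The libraries held 4236 to 11951 fibroblasts with a median of 3990 to 20256 UMIs per cell, and 47521842 to 102522735 UMIs per sum. No pair of libraries shared more than 34 barcodes. Summed macrophage markers reached 1.58 to 7.82 CPM in the fibroblast sums, T cell markers 0.0406 to 13.2 CPM and B cell markers 0.527 to 4.21 CPM, with CD31, CD45 and TER-119 positive cells depleted by the sort in all libraries. Milk transcripts reached 462 CPM in lactation and at most 15.7 CPM elsewhere. Intervals on counts and shares cover counting error alone. In these sums, fewer cells that express a gene and less RNA per cell cannot be told apart, which is why shares of cells are given as well.

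RefSeq promoter windows (GRCm38.p6, 250 bases before to 50 after the start) were found for 33 of the 41 members, and 18 of the 33 (54.5%) held the ISRE core, which is GAAA and again GAAA with any 2 bases between, on either strand, against 3.99% of 27025 genes. The gamma-activated site motif TTCNNNGAA was in 7 of the 33 (21.2%), against 9.55% of all genes. A match is a description of the letters and does not show that a factor binds there. Irgm1, Gbp2, Gbp7 and Ifi203 held the ISRE core but did not pass edgeR's test of MPA+E against placebo given below. The other members with the core passed it, as did Ifi35, whose window held no core. The windows are of the reference genome and not of the mixed-background mice. The 250 bases before the start, in the gene's own direction, are printed for Isg15, Ifit3, Ifit3b and Bst2, members with several matches whose levels separate the hormone arms, and for Ifi202b, which followed another pattern and held no ISRE core but a match of TTCNNNGAA. Capitals mark matches to the ISRE core. The windows are chr4:156200819-156201068 (minus strand) for Isg15, chr19:34583279-34583528 (plus strand) for Ifit3, chr19:34607707-34607956 (plus strand) for Ifit3b, chr8:71537473-71537722 (minus strand) for Bst2 and chr1:173982845-173983094 (minus strand) for Ifi202b.
Isg15: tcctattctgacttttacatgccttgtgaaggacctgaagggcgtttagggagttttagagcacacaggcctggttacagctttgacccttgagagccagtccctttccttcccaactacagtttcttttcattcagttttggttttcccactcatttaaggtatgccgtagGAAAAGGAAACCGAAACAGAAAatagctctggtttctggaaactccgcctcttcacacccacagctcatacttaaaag
Ifit3: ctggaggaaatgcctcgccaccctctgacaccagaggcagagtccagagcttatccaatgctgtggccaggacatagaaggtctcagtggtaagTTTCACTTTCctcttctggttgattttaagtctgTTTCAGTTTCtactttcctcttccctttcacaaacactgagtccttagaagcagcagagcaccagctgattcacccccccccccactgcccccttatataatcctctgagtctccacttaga
Ifit3b: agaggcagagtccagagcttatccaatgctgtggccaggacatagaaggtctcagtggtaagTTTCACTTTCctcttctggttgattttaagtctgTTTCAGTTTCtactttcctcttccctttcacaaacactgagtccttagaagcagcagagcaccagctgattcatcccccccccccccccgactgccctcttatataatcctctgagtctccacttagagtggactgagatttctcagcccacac
Bst2: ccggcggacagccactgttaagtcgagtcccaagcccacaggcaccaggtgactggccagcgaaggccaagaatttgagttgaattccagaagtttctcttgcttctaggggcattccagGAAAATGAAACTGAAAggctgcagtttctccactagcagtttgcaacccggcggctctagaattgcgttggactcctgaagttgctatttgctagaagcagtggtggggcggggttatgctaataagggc
Ifi202b: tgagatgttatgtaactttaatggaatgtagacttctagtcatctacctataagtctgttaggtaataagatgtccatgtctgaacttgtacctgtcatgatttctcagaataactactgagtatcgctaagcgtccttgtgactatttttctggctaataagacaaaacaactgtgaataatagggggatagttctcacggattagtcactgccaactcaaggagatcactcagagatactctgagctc
The 3 matches of Isg15 overlap each other close to its start, while those of Ifit3 and Ifit3b lie apart on the opposite strand. The transcripts of Ifit3 and Ifit3b were 98.0% identical over 1697 aligned bases, so many reads match both and their separate levels are uncertain. Ifi202b belongs to a family of close copies on chromosome 1, and Oas1a, the Gbp genes and the Phf11 genes also have near copies, so their single levels carry the same limit.

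Interferon-induced transcripts were present in fibroblasts of every library, and their summed level spanned 863 to 14174 CPM. The lactation library held 3006 CPM, against 7085 CPM at puberty, 6735 CPM in the virgin adult, 6644 CPM during pregnancy and 5580 CPM during involution. Placebo libraries held 5109 and 4516 CPM, and MPA+E libraries 13480 and 14174 CPM. Hyperplasia libraries held 3466 and 2300 CPM and tumour libraries 1538 and 863 CPM. The highest sums were thus those of the MPA+E glands and the lowest those of the tumours, with each of these groups apart from all other libraries. Ifi27l2a, encoding a small interferon-induced membrane protein, was the most abundant member in 10 of the 13 libraries and reached 3524 and 3428 CPM under MPA+E.

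**Figure D1:**
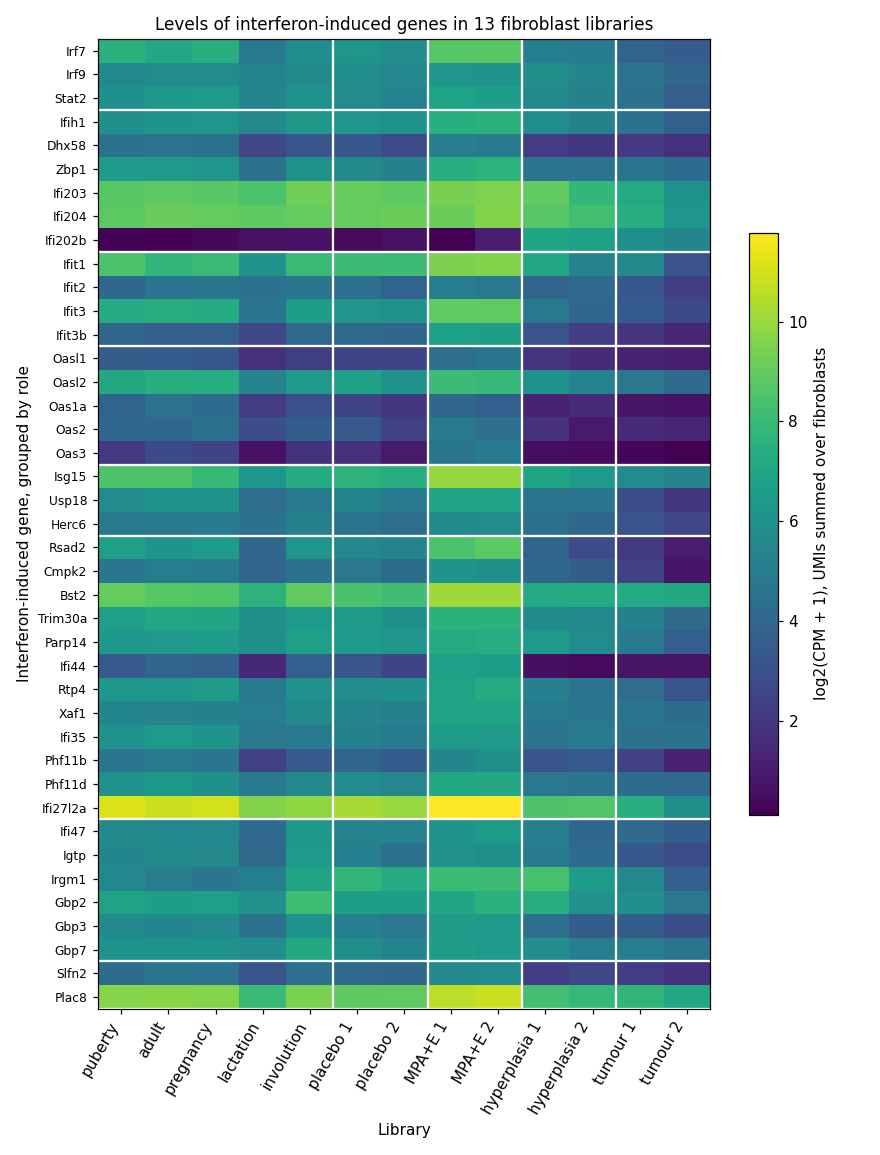
Level of each of the 41 members in each of the 13 libraries as log2 of CPM plus 1, with members grouped by role. Ifi27l2a has the brightest cells at 3524 and 3428 CPM in the MPA+E libraries, while Ifi202b is high in the 4 hyperplasia and tumour libraries.

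Because a cell read more deeply shows more members, each fibroblast of at least 2000 UMIs was thinned to 2000 UMIs before members were counted. Shallower fibroblasts were left out, 86 to 1310 per library, with the most in pregnancy (1310 of 11501), so thinned shares are of the deeper cells. At that depth 5 or more members were found in 29.9% of lactation fibroblasts, against 60.8% at puberty, 59.8% in the virgin adult, 66.3% during pregnancy and 58.5% during involution. The share was 46.3% and 39.2% in the placebo libraries and 77.9% and 76.5% in the MPA+E libraries. It was 37.8% and 19.8% in hyperplasia and 14.3% and 4.79% in the tumours. Without thinning the shares ran from 71.0% to 95.7% and did not separate lactation (83.3%) from the adult (79.7%). Exact binomial 95% limits around the thinned shares were within 1.5 percentage points on either side. The arms differed by 34.5 percentage points, with 77.2% ± 0.992 under MPA+E and 42.7% ± 5.05 under placebo (SD, n = 2 each), and the exact permutation test gave p = 0.333, two-sided, the smallest that 2 against 2 libraries allow. No cell type that lacks these genes was available to gauge free RNA in the droplets.

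**Figure D2:**
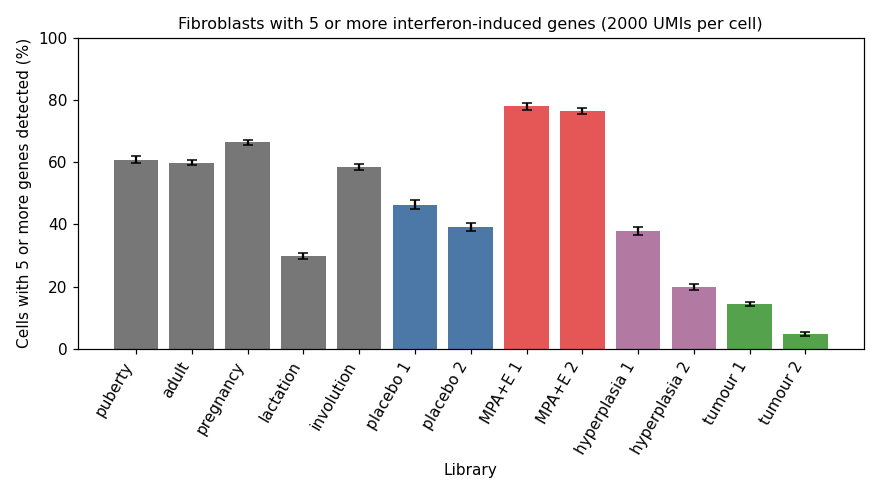
Percent of fibroblasts of at least 2000 UMIs, thinned to 2000 UMIs each, in which 5 or more of the members were detected, by library, with exact binomial 95% intervals. Both MPA+E libraries lie above 76% and the tumour libraries below 15%.

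Most interferon-induced genes were higher in fibroblasts of MPA+E-treated than of placebo-treated glands. Of the 41 members, 32 were higher than under placebo and 0 lower at an adjusted p under 0.05 by edgeR's quasi-likelihood test over 15642 genes, where 2.69% of all genes were called higher, 1.64% lower and 4.33% in either direction. No member had a log2 fold change below 0, 39 had an unadjusted p under 0.05, and DESeq2 called 39 higher and 0 lower, with 4.56% of all genes higher. The median log2 fold change of the members was 1.57 and that of all genes 0.01. Both MPA+E libraries lay above both placebo libraries for 40 members, all but Ifi202b, as they did for 21.2% of all genes. The number called rested on the 2 placebo libraries, since it fell to 6 without placebo 1 and to 7 without placebo 2, against 0.111% and 0.215% of all genes, while all 41 log2 fold changes were above 0 in both of these fits. Ifi44, Oas3, Irf7, Dhx58, Ifit3 and Ifit3b were called whichever library was left out. B cell markers were at 1.44 and 1.07 CPM in the placebo libraries and 4.02 and 4.21 CPM in the MPA+E libraries, with 1 of the list's genes at 0 in placebo 2 and in both MPA+E libraries, and their part in the result was not tested. Macrophage markers were at 1.58 to 2.64 CPM in these 4 libraries, and T cell markers below 0.3 CPM. The untreated adult library, of the same age and strain, held more of most members than the placebo libraries, and with it added to placebo 16 members were called higher and 0 lower by edgeR, against 1.40% of all genes higher, with all 41 log2 fold changes above 0.

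Among the transcription factors of the response, Irf7, which drives interferon genes and is itself interferon-induced, was at 76.1 and 57.1 CPM under placebo and 436 and 441 CPM under MPA+E. Its log2 fold change by edgeR was 2.74 ± 0.15 (SE, adjusted p = 0.00657). Stat2, a signalling factor downstream of the interferon receptor, was at 52.1 and 38.7 CPM against 116 and 100.5 CPM, a log2 fold change of 1.27 ± 0.13 (SE, adjusted p = 0.0139). Both MPA+E libraries were above both placebo libraries for these genes, by a wider margin for Irf7. Irf9, the DNA-binding subunit that completes the complex, was at 53.97 and 44.7 CPM against 71.5 and 70.3 CPM. Its arms also did not overlap, but the log2 fold change of 0.54 ± 0.10 (SE, adjusted p = 0.0562) missed the threshold.

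The ISG15 system rose in all 3 measured members. Isg15, a ubiquitin-like modifier, was at 199 and 164 CPM under placebo and 989.5 and 969.9 CPM under MPA+E, a log2 fold change of 2.45 ± 0.12 (SE, adjusted p = 0.00582). Usp18, the protease that removes it and dampens the receptor, was at 41.1 and 29.0 CPM against 118 and 118 CPM, with 1.77 ± 0.15 (SE, adjusted p = 0.00966). The MPA+E libraries differed from each other by far less than from placebo for both genes. Herc6, a ligase for Isg15, had a log2 fold change of 1.30. In cells, an Isg15 UMI was found at 2000 UMIs in 20.5% and 17.7% of placebo fibroblasts and in 58.0% and 55.1% of MPA+E fibroblasts.

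Of the IFIT genes, whose proteins bind foreign RNA and block its translation, 3 of 4 rose. Ifit3 was at 76.0 and 68.2 CPM under placebo and 483 and 492 CPM under MPA+E, with a log2 fold change of 2.77 ± 0.11 (SE, adjusted p = 0.00367). Ifit3b (2.73) and Ifit1 (1.43) were also called, and Ifit2 (0.85) was not. Among genes of the oligoadenylate synthetase family, some of which sense viral RNA and activate RNase L, 4 of 5 were called. Oas3 had the largest log2 fold change of all members, from 2.26 and 0.957 CPM under placebo to 23.3 and 30.6 CPM under MPA+E (4.10 ± 0.39 SE, adjusted p = 0.0115). The other called genes of this family were Oasl1 (2.22), Oas1a (1.77) and Oasl2 (1.57). Oas1a, at 4.68 and 3.02 CPM under placebo and 14.8 and 11.2 CPM under MPA+E, was at 22.5 CPM in the untreated adult, above both arms. Oas2 was at 9.53 and 4.41 CPM against 27.3 and 20.5 CPM and at 1.80 (adjusted p = 0.0596) was not called.

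All 12 other antiviral effectors rose. Ifi44, an interferon-induced protein that limits viral spread, was at 8.29 and 4.44 CPM under placebo and 104 and 99.2 CPM under MPA+E, a log2 fold change of 4.03 ± 0.28 (SE, adjusted p = 0.00716). Rsad2, whose product viperin blocks viral replication, was at 44.7 and 40.3 CPM against 352 and 457 CPM, with 3.27 ± 0.19 (SE, adjusted p = 0.00691). Bst2, whose product tetherin holds virus particles at the cell surface, was at 341 and 295 CPM against 1118 and 1125 CPM, with 1.83 ± 0.12 (SE, adjusted p = 0.00702). For each of the 3 genes the lower MPA+E library was more than 3 times the higher placebo library. The further called effectors were Phf11b (2.08), Ifi27l2a (1.69), Cmpk2 (1.61), Xaf1 (1.60), Phf11d (1.52), Trim30a (1.46), Ifi35 (1.41), Rtp4 (1.20) and Parp14 (0.89), in log2 fold change.

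Nucleic-acid sensors were raised in part. Zbp1 (2.17), Dhx58 (2.10) and Ifih1 (1.40), which detect viral nucleic acids, were called. The DNA-binding proteins Ifi203 (0.50), Ifi204 (0.32) and Ifi202b (0.50) were not. Ifi202b was scarce, with 0.331 and 0.569 CPM under placebo and 0.0804 and 1.16 CPM under MPA+E, and these values overlapped. Of the interferon-induced GTPases, which act on the vacuoles of intracellular microbes, Gbp3 (1.56), Igtp (1.16) and Ifi47 (0.97) were called, while Gbp7 (0.91), Gbp2 (0.71) and Irgm1 (0.56) were not. Slfn2 (1.75), a regulator of T cell quiescence, and Plac8 (1.85), first described in placenta, were called.

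**Figure D3:**
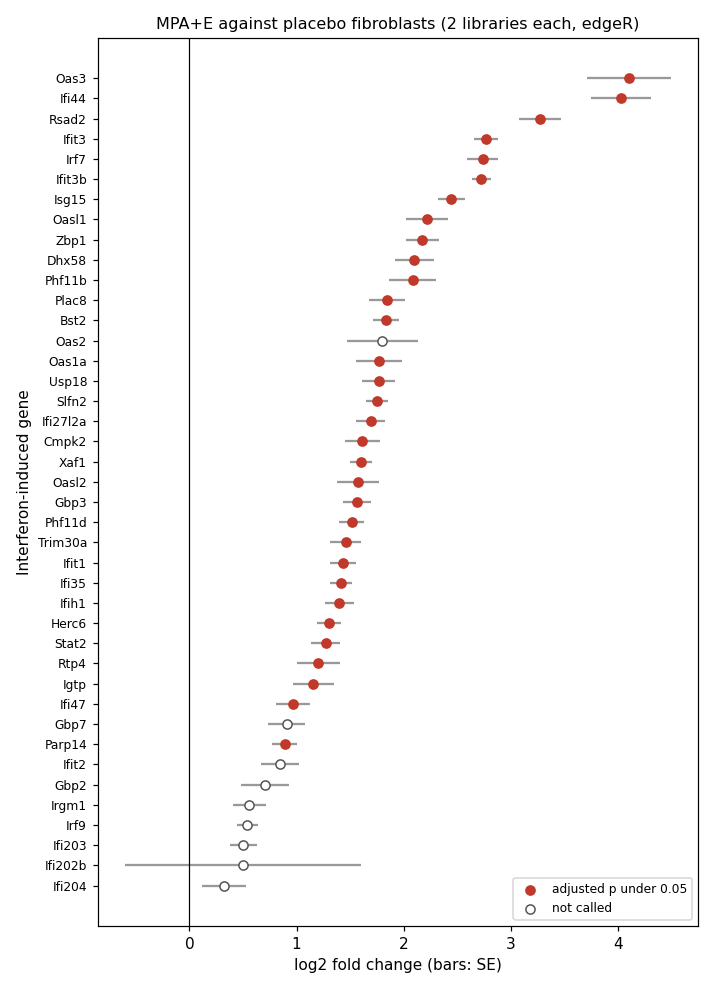
Log2 fold change of each member between the 2 MPA+E and the 2 placebo libraries by edgeR, with bars of 1 SE, ordered by size, and filled points for an adjusted p under 0.05. All 41 points lie above 0, and Oas3 and Ifi44 reach beyond 4.

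Upstream of the members, the ligand gene was higher under MPA+E. Ifnb1, encoding interferon beta, was at 0.274 and 0.264 CPM under placebo (19 and 19 UMIs) and 3.06 and 5.44 CPM under MPA+E (266 and 496 UMIs), a log2 fold change of 4.00 ± 0.42 (SE, adjusted p = 0.0139) by edgeR. Without placebo 1 its adjusted p was 0.0940 and without placebo 2 it was 0.0902, with log2 fold changes between 3.46 and 4.39 over the alternatives. It was the only one of 9 ligand genes with enough counts to test. The arms did not overlap, and 0 to 10 Ifnb1 UMIs were counted in each of the other 9 libraries.

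Few cells held the ligand's transcript. A UMI of Ifnb1 was found in 9 of 4843 and 9 of 5760 placebo fibroblasts, and in 109 of 5152 (2.12%, exact binomial 95% interval 1.74 to 2.55%) and 278 of 8697 (3.20%, 2.84 to 3.59%) MPA+E fibroblasts. In pericyte-like barcodes the same libraries held it in 0 of 108, 0 of 114, 1 of 133 and 2 of 208, at median depths of 4638.5 to 7438.5 UMIs against 10216 to 16827 in the fibroblasts. The intervals of the pericyte-like shares under MPA+E reached 4.12% and 3.43%, so a difference from fibroblasts was not detectable at this depth. Single fibroblasts held up to 21 and 12 Ifnb1 UMIs in the MPA+E libraries, and the 10 highest cells held 33.5% and 13.3% of the UMIs. By the marker gates described with the fibroblast groups, cells of the progenitor gate held 98.1% and 89.7% of the Ifnb1 UMIs under MPA+E (261 of 266 and 445 of 496), and 44.7% and 50.6% of all fibroblast UMIs there. Under placebo they held 19 of 19 and 18 of 19. Per UMI, Ifnb1 was at 6.72 and 9.66 CPM in the progenitor gate under MPA+E. In the lobular gate it was at 0.0752 and 3.75 CPM (1 and 24 UMIs), closer to the progenitor gate in MPA+E 2. The preadipocyte, ECM remodelling and adipogenesis-regulatory gates of MPA+E 2 were at 0.434, 0.222 and 1.16 CPM, from 1, 1 and 2 UMIs.

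None of 5 tested receptor genes was called by edgeR or had an unadjusted p under 0.05 (0 of 5), and their median log2 fold change was -0.09. Of 9 tested sensors and adaptors, Ddx58 (0.98), encoding the RNA sensor RIG-I, and Tlr3 (0.87), a receptor for viral RNA in endosomes, were higher. Of 4 tested inhibitors, Samhd1 (1.41), which depletes nucleotides, and Adar (1.11), which edits RNA, were higher. In the same fit 2.69% of all genes were called higher and 1.64% lower. A separate list of 48 tested interferon-induced genes that are not members had 29 called higher and 1 lower, with a median of 0.98. Its largest rises were Ifi209 (2.84), Oas1g (2.35) and Epsti1 (2.25), and Ifi27 (-0.75) was the single fall.

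Vascular mural cells caught in the same sort were read as a second cell type. Pericyte-like barcodes were named from 3 or more UMIs of Rgs5. They numbered 108 and 114 in the placebo and 133 and 208 in the MPA+E libraries. Their 1838 to 3058 CPM of Rgs5 followed from this gate. Notch3, a pericyte marker that the gate did not use, was at 503 to 668 CPM. Dcn was at 972 to 1955 CPM in these barcodes against 9607 to 11408 CPM in the fibroblasts of these libraries. The summed member level was 1673 and 2266 CPM under placebo and 6456 and 9908 CPM under MPA+E. The arms did not overlap in that sum. Of 34 members with enough counts, 13 were called higher by edgeR and 0 lower, against 0.358% and 0.0493% of 8109 genes, and all 34 log2 fold changes were above 0. Without a filter on low counts 27 were called (1.05% of all genes) and with a replicate block 28 (2.06%). Leaving out placebo 1 gave 21 calls (1.29%) and leaving out placebo 2 gave 25 (2.04%). The number was 30 (1.67%) when MPA+E 1 was dropped and 19 (1.61%) when MPA+E 2 was. The called members were Ifi44 (5.37), Ifit3b (4.30), Ifit3 (3.91), Ifit1 (3.87), Irf7 (3.87), Rsad2 (3.82), Trim30a (3.14), Gbp3 (2.67), Bst2 (2.52), Xaf1 (2.50), Usp18 (2.39), Phf11d (2.17) and Rtp4 (1.72), in log2 fold change. Barcodes with Pecam1 numbered 47 and 14 in the placebo libraries, 94 and 31 in the MPA+E libraries, and still held 4524 to 8922 CPM of Dcn, so their endothelial name is not clean. Their summed member level was 5212 and 6194 CPM under placebo and 9994 and 9696 CPM under MPA+E, given with no test.

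Fibroblast groups were gated by the strictly largest sum of fixed marker genes, at 2 or more UMIs per thinned cell. The groups were progenitor (Pi16, Dpp4, Cd55, Sema3c and Anxa3), preadipocyte (Fabp4 and Cd36), extracellular matrix (ECM) remodelling (Crabp1 and Pla2g7), adipogenesis-regulatory (Gdf10 and Clec11a) and lobular (Bmp5, Thbs4 and Cilp). Each gate was compared by edgeR with the mean of the other gates in the 9 C57BL/6 libraries, with library as a block, over 44 sums and 11719 genes. Sums of 1 library share its animals, so these p-values rest on 9 libraries at most.

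Over these libraries 25 of 40 members had their highest fitted value in the progenitor gate, 8 in the adipogenesis-regulatory, 6 in the preadipocyte and 1 in the lobular gate, and all 40 had their lowest in the ECM remodelling gate. In the progenitor gate 30 of 40 members were called higher and 2 lower, against 30.0% and 28.2% of all genes, with a median log2 difference of 0.72. The largest were Phf11b (3.59), Slfn2 (2.38), Oas3 (1.92), Ifi27l2a (1.78), Plac8 (1.64) and Zbp1 (1.59), and Ifi203 (-0.43) and Irgm1 (-0.32) were lower. All 40 were called lower in the ECM remodelling gate, against 27.5% of genes called lower and 26.6% higher, with a median of -1.70. The largest falls there were Phf11b (-4.85), Oas3 (-4.44), Slfn2 (-3.84) and Ifit1 (-3.20). In sums, the adult gland held 8249 CPM of the members in the progenitor gate and 1499 in the ECM remodelling gate. Placebo glands held 6198 and 4949 against 1501 and 1258 CPM. MPA+E glands held 17087 and 17578 CPM in the progenitor gate against 3455 and 2908 CPM in the ECM remodelling gate, so the order of these gates was the same in all 5 libraries. In placebo 2 the adipogenesis-regulatory gate, at 5984 CPM, was above the progenitor gate.

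The other gates were closer to each other. The mean that each was set against includes the ECM remodelling gate, so a call of higher does not mean above the remaining gates. In the adult, the lobular sum of 3895 CPM was below the preadipocyte (5382 CPM) and adipogenesis-regulatory (5210 CPM) gates, as in both placebo libraries. In both MPA+E libraries the lobular sum was above those of these gates. In the lobular gate 17 members were called higher and 0 lower (16.4% and 10.6% of all genes, with a median of 0.28). The preadipocyte gate had 19 higher and 1 lower, Ifit2 (-0.44), against 18.1% and 16.9%, and a median of 0.32, with its largest value for Ifi44 (1.55). The adipogenesis-regulatory gate had 16 higher and 1 lower, Ifi44 (-0.999), against 21.2% and 22.3%, and a median of 0.27. Its largest values were Ifit1 (1.77), Ifi47 (1.58) and Ifit3 (1.29). With the 5 stage libraries alone, the lobular gate had 2 members higher and 1 lower, against 9.19% and 3.65% of all genes. The preadipocyte and adipogenesis-regulatory gates had 8 higher and 0 lower each, against 10.0% and 10.6% of genes higher, and the ECM remodelling gate had 35 lower, against 12.2%.

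**Figure D4:**
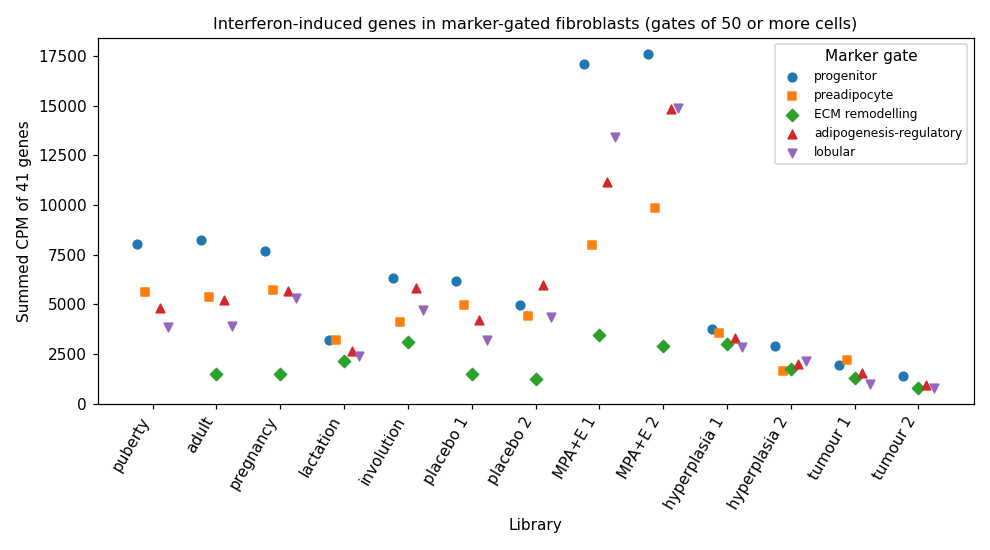
Summed member CPM by marker gate in each of the 13 libraries, for gates of 50 or more cells, on a linear axis from 0. The progenitor gate is above the ECM remodelling gate in each library that has both, and reaches 17087 and 17578 CPM in the MPA+E libraries, and the lobular gate of the tumour libraries holds little Bmp5.

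The hormone effect held within gates. With the progenitor gate alone, 34 of 41 members were called higher under MPA+E by edgeR, against 4.58% of genes higher and 4.16% lower in that fit. With the lobular gate alone 27 of 40 were higher, against 1.48% of genes higher and 0.483% lower. The difference between the effect in the progenitor gate and the mean effect in the lobular and adipogenesis-regulatory gates was tested in 1 fit, and 3 of 40 members were called lower and 0 higher by edgeR, against 0.993% and 0.689% of all genes. The 3 were Ifi27l2a, Slfn2 and Plac8, whose log2 rise in the progenitor gate was smaller than that mean. For Plac8 it was smaller than in the lobular gate but not than in the adipogenesis-regulatory gate. Of the members with a difference above 0, Igtp and Irgm1 had an unadjusted p under 0.05. In the progenitor gate, Ifi27l2a was at 1773 and 1480 CPM in the placebo and 4895 and 4916 CPM in the MPA+E libraries, and in the lobular gate at 456 and 467 against 3412 and 3124 CPM. Its level stayed highest in the progenitor gate in both arms.

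Across development, interferon-induced genes at puberty and in pregnancy were within 2-fold of the adult, and most were lower in lactation. Each stage had 1 library, so these are ratios of CPM with no replicate check. Against the adult, 0 members were 2-fold or more higher or lower at puberty (4.26% and 2.70% of all genes) and 0 in pregnancy (3.91% and 1.45%). The median ratio to the adult was 0.956 at puberty and 0.954 in pregnancy. With the mean of the adult and both placebo libraries as reference, 2 members were 2-fold or more higher and 1 lower at puberty (4.40% and 6.15% of all genes, with a median ratio of 1.18), and 1 higher and 1 lower in pregnancy (4.19% and 4.80%, with a median ratio of 1.24). Above all 3 of these libraries were 14 members at puberty and 11 in pregnancy (25.0% and 29.5% of all genes), and below all 3 were 3 and 4 (32.8% and 24.5%). In lactation 28 members were 2-fold or more lower and 1, Ifi202b, at 0.149 CPM in the adult and 0.540 CPM in lactation, higher, against 5.53% and 9.82% of all genes, and the median ratio was 0.394 against 1.06 over all genes.

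The lactation levels covered all roles. Irf7 was at 143 CPM in the adult and 27.2 CPM in lactation, Isg15 at 374 and 74.6 CPM, and Ifit3 at 169.7 and 25.0 CPM. Stat2 was at 80.3 and 43.0 CPM, Irf9 at 52.7 and 40.6 CPM, Usp18 at 69.2 and 18.6 CPM, and Bst2 at 431 and 204 CPM. The factors Stat2 and Irf9 were thus within 2-fold of the adult and Irf7 was not. The members past 2-fold, with their ratio to the adult, were Oas3 (0.109), Ifi44 (0.119), Phf11b (0.137), Ifit3 (0.148), Oas1a (0.161), Irf7 (0.191), Isg15 (0.199), Rsad2 (0.212), Oasl2 (0.222), Oasl1 (0.226), Dhx58 (0.227), Zbp1 (0.232), Usp18 (0.269), Ifit1 (0.294), Plac8 (0.308), Ifi35 (0.310), Igtp (0.336), Phf11d (0.350), Slfn2 (0.363), Ifi47 (0.372), Rtp4 (0.394), Ifi27l2a (0.410), Oas2 (0.419), Ifit3b (0.438), Trim30a (0.445), Cmpk2 (0.452), Bst2 (0.473) and Gbp3 (0.488). Set against the virgin libraries of the same age (adult and both placebo libraries), 33 members were below all 3 in lactation, as were 21.0% of all genes, and 0 were above all 3, as were 40.7% of all genes. With the mean of those 3 libraries as reference, 22 members were 2-fold or more lower and 0 higher, against 5.76% and 6.68% of all genes, and the median ratio was 0.474. By gate, the summed level was 8249 CPM in the adult and 3224 CPM in lactation for progenitor cells, 5382 and 3191 CPM for preadipocyte cells, 5210.1 and 2655 CPM for adipogenesis-regulatory cells and 3895 and 2392 CPM for lobular cells. The ECM remodelling gate went the other way, with 1499 and 2169.6 CPM from 214 and 99 thinned cells.

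In involution the result depended on the reference. There 11 members were 2-fold or more below the adult and 4 above it, against 4.66% and 9.04% of all genes, with a median ratio of 0.842. With the mean of the adult and placebo libraries as reference, 3 members were 2-fold or more higher and 0 lower, against 5.80% and 3.56% of all genes, with a median ratio of 1.08. Above all 3 of these libraries were 15 members and below them 6, against 28.4% and 26.8% of all genes. The members lower than in the adult were Oas1a (0.306), Irf7 (0.378), Isg15 (0.415), Usp18 (0.441), Oas3 (0.463), Oasl1 (0.365), Oasl2 (0.492), Dhx58 (0.360), Phf11b (0.312), Ifi27l2a (0.499) and Ifi35 (0.345). Those higher than in the adult were the GTPases Irgm1 (3.73), Gbp2 (2.89) and Gbp7 (2.21), and Ifi202b (3.89) at 0.149 and 0.579 CPM in the adult and involution. Irgm1 was at 32.7 CPM in the adult, 122 CPM in involution and 221 and 158 CPM in the placebo libraries, so its involution level lay between those of the virgin libraries.

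Fibroblasts of hyperplastic Wnt1 glands held less of most interferon-induced genes than those of normal C57BL/6 glands. The normal group was the puberty and adult libraries, and the fit was limma-voom over 6 libraries and 16302 genes. Of 41 members, 21 were called lower in hyperplasia and 1 higher, against 6.29% and 7.70% of all genes, and the median log2 fold change was -1.51 against -0.01 over all genes. Both hyperplasia libraries were below both normal libraries for 34 members, as for 33.3% of all genes. Both were above them for 2, Ifi202b and Irgm1, as for 37.2%. With the placebo libraries added to normal, 8 members were lower and 1 higher, against 1.27% and 2.96% of all genes. The call count, in either direction, depended on single libraries. It was 2 without puberty (0.0470% of all genes), 9 without the adult (1.08%) and 33 without either tumour library (28.3% and 28.4%). It was 0 without hyperplasia 1 or hyperplasia 2 (0.0118% and 0.00586%), where by limma 31 and 24 members still had an unadjusted p under 0.05. Strain background, reporter, sort and age differed along with hyperplasia and cannot be told apart from it.

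Ifi44 fell most, from 9.63 and 13.9 CPM in the puberty and adult libraries to 0.496 and 0.331 CPM in hyperplasia, a log2 fold change of -4.89 ± 0.38 (SE, adjusted p = 0.00553) by limma. Oas2 was at 15.5 and 15.7 CPM against 2.41 and 0.911 CPM, with -3.48 ± 0.38 (SE, adjusted p = 0.00921), and Oas1a at 13.4 and 22.5 CPM against 1.40 and 1.82 CPM, with -3.47 ± 0.35 (SE, adjusted p = 0.00781). All 5 genes of the oligoadenylate synthetase family were lower, among them Oas3 (-3.37), Oasl1 (-2.33) and Oasl2 (-1.67). For Ifi44, Oas2 and Oas1a each hyperplasia library was far below each normal library.

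Irf7 was at 190.3 and 143 CPM in the normal libraries and 35.0 and 30.1 CPM in hyperplasia, a limma log2 fold change of -2.39 ± 0.23 (SE, adjusted p = 0.00725). Stat2 at 62.0 and 80.3 against 50.8 and 36.8 CPM (-0.74 ± 0.32 SE, adjusted p = 0.155) and Irf9 at 45.9 and 52.7 against 57.8 and 42.2 CPM (-0.03 ± 0.25 SE, adjusted p = 0.944) were not called. Of the factors, Irf9 overlapped between groups while Irf7 and Stat2 did not. Isg15 was at 376 and 374 CPM against 125 and 83.5 CPM, with -1.91 ± 0.25 (SE, adjusted p = 0.0125), and Usp18 at 53.2 and 69.2 CPM against 23.1 and 24.8 CPM, with -1.37 ± 0.32 (SE, adjusted p = 0.0428). Ifit3 was at 156 and 169.7 CPM against 27.6 and 15.7 CPM, with -3.01 ± 0.37 (SE, adjusted p = 0.0111), and Bst2 at 526 and 431 CPM against 151 and 156 CPM, with -1.67 ± 0.17 (SE, adjusted p = 0.00865). The hyperplasia libraries were the lower ones for each of these 4 genes.

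The further members called lower in hyperplasia were Rsad2 (-3.32), Dhx58 (-2.82), Ifi27l2a (-2.47), Slfn2 (-2.24), Zbp1 (-2.07), Gbp3 (-1.70), Phf11b (-1.65), Plac8 (-1.64), Ifi35 (-1.57) and Phf11d (-1.51). Members beyond 1 log2 unit that were not called were Ifit1 (-2.01), Rtp4 (-1.44), Ifit3b (-1.35), Trim30a (-1.35), Cmpk2 (-1.16), Ifi47 (-1.11) and Igtp (-1.06) and Irgm1, at 2.16. Irgm1 stood at 45.7 and 32.7 CPM in the normal and 329 and 94.0 CPM in the hyperplasia libraries, and the placebo libraries at 221 and 158 CPM overlapped the latter. With the progenitor gate alone, 25 members were lower and 1 higher by limma, against 2.30% and 3.37% of genes. The summed level in that gate was 8019 and 8249 CPM in the normal and 3778 and 2912 CPM in the hyperplasia libraries, while in the ECM remodelling gate it was 1499 CPM in the adult and 3008 and 1741 CPM in hyperplasia. ECM remodelling cells, lowest in members over the C57BL/6 libraries but not in either hyperplasia library, were 0.254% and 1.89% of fibroblasts in the normal and 24.7% and 23.9% in the hyperplasia libraries. T cell markers were at 0.328 and 0.0406 CPM in the normal and 3.26 and 4.96 CPM in the hyperplasia libraries, and genes of the dissociation stress response at 8798 and 10456 against 19509 and 17753 CPM. Their part in the result was not tested.

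Ifi202b, a DNA-binding member of the interferon-inducible p200 family, was the only member called higher. It was at 0.185 and 0.149 CPM in the puberty and adult libraries and 131 and 103 CPM in hyperplasia, from 20 and 14809 UMIs in all, a ratio of 704 with a counting interval of 456 to 1153. The limma log2 fold change was 9.37 ± 0.60 (SE, adjusted p = 0.00469), with an adjusted p of 0.0584 without puberty, 0.0607 without hyperplasia 1 and 0.0541 without hyperplasia 2. In the tumour libraries it was at 61.0 and 42.1 CPM. In none of the 9 C57BL/6 libraries did it pass 1.16 CPM, including the MPA+E libraries in which most other members were at their highest. Its level was high in the raGFP-Wnt1 libraries, where most other members were low, and strain cannot be told apart from the Wnt1 transgene here.

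**Figure D5:**
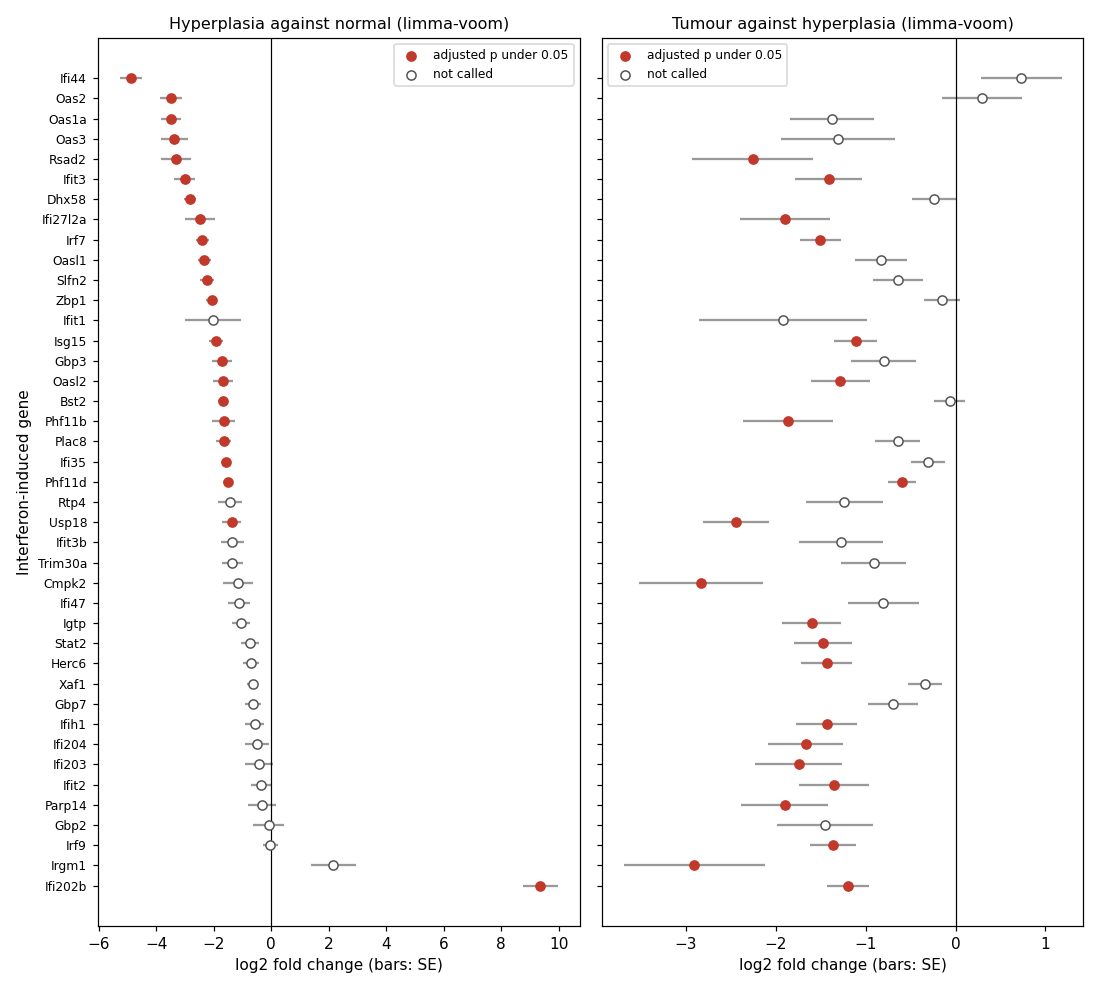
Log2 fold change of each member by limma-voom, in hyperplasia against normal (left) and tumour against hyperplasia (right), with bars of 1 SE, members in the order of the left panel and filled points for an adjusted p under 0.05. Most points lie below 0 in both panels, and Ifi202b stands alone at 9.37 on the left.

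Tumours were compared with hyperplasia. There 21 of 41 members were called lower and 0 higher by limma in the same fit, while 20 did not pass the test. Of all genes 13.9% were called lower and 15.4% higher, and the median log2 fold change of the members was -1.31. Of the members above 0, Ifi44 and Oas2, neither had an unadjusted p under 0.05, and DESeq2 called 26 lower and 0 higher, with 16.0% of all genes lower. Both tumour libraries were below both hyperplasia libraries for 34 members, as for 36.4% of all genes, and above them for 1, Ifi44, as for 35.3%. Within each mouse, 37 of 41 members were lower in the tumour than in the hyperplastic gland in both mice, as were 40.9% of all genes, with a median log2 ratio of -1.03 in mouse 1 and -1.27 in mouse 2 on the scale of CPM plus 1. With only the 4 libraries compared, 10 members were called lower, against 9.39% of all genes. The count was 0 without hyperplasia 1 or without hyperplasia 2 (0.561% and 0.856% of all genes), where 18 and 29 members had an unadjusted p under 0.05 by limma. It was 9 without puberty or the adult (8.05% and 8.01%), 31 without tumour 1 (20.6%) and 14 without tumour 2 (8.53%).

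Irgm1, a GTPase that acts on bacterial vacuoles, fell most, from 329 and 94.0 CPM in hyperplasia to 46.5 and 12.0 CPM in the tumours, a limma log2 fold change of -2.91 ± 0.79 (SE, adjusted p = 0.0370). Cmpk2, a mitochondrial nucleotide kinase, went from 15.3 and 10.9 CPM to 4.32 and 0.695 CPM (-2.83 ± 0.69 SE, adjusted p = 0.0281), and Usp18 from 23.1 and 24.8 CPM to 6.66 and 2.85 CPM (-2.44 ± 0.37 SE, adjusted p = 0.00994). Each tumour library was below each hyperplasia library for these 3 genes. The factors fell together, Irf7 to 13.1 and 9.92 CPM (-1.50 ± 0.23 SE, adjusted p = 0.0104), Stat2 to 20.8 and 11.6 CPM (-1.47 ± 0.32 SE, adjusted p = 0.0222) and Irf9 to 23.4 and 15.7 CPM (-1.36 ± 0.25 SE, adjusted p = 0.0161). Isg15 was at 53.1 and 42.3 CPM in the tumours (-1.11 ± 0.24 SE, adjusted p = 0.0212) and Ifit3 at 10.49 and 5.70 CPM (-1.41 ± 0.37 SE, adjusted p = 0.0348). Ifi202b went to 61.0 and 42.1 CPM (-1.19 ± 0.24 SE, adjusted p = 0.0179). Bst2 was at 151 and 142 CPM, with -0.07 ± 0.17 (SE, adjusted p = 0.783), and was not called.

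Other members called lower in the tumours were Rsad2 (-2.26), Ifi27l2a (-1.90), Parp14 (-1.90), Phf11b (-1.86), Ifi203 (-1.74), Ifi204 (-1.66), Igtp (-1.60), Herc6 (-1.43), Ifih1 (-1.43), Ifit2 (-1.35), Oasl2 (-1.28) and Phf11d (-0.59). Members beyond 1 log2 unit that were not called were Ifit1 (-1.92), Gbp2 (-1.45), Oas1a (-1.37), Oas3 (-1.31), Ifit3b (-1.27) and Rtp4 (-1.24). With the mouse as a replicate block, in the 4 libraries compared, 28 members were called lower, against 14.0% of all genes. Beside the fit over 6 libraries, that fit added 9 calls, with limma adjusted p-values in brackets, Ifit1 (0.0165), Gbp2 (0.0143), Oas1a (0.0423), Ifit3b (0.0198), Rtp4 (0.0183), Gbp3 (0.0247), Gbp7 (0.0294), Ifi47 (0.0338) and Plac8 (0.0403), and dropped Phf11b (0.0607) and Ifit2 (0.0573). Ifi44 was at 0.496 and 0.331 CPM in hyperplasia and 0.663 and 0.672 CPM in the tumours. With the progenitor gate alone 13 members were lower by limma, against 3.84% of genes lower and 5.61% higher. With the ECM remodelling gate alone 18 of 36 were lower and 1, Bst2, was higher, against 17.5% and 18.5% of genes, and Ifi27l2a turned to 0.34 (adjusted p = 0.152) and was not called. The gates' shares also differed, with progenitor cells at 28.9% and 35.3% of hyperplasia and 43.0% and 10.0% of tumour fibroblasts. The gate of Bmp5, Thbs4 and Cilp took 3.51% and 2.15% of hyperplasia and 25.7% and 29.1% of tumour fibroblasts, but its name may not hold in tumours. There Bmp5 was at 2.82 and 0.818 CPM in that gate against 112 and 43.7 CPM in hyperplasia, Thbs4 at 212 and 192 against 2203 and 601 CPM, and Cilp at 2452 and 1936 against 2587 and 1702 CPM. T cell markers reached 13.2 and 4.39 CPM in the tumours against 3.26 and 4.96 CPM in hyperplasia, macrophage markers 5.59 and 7.82 against 4.11 and 3.42 CPM, and pericyte markers 9.48 and 18.0 against 5.89 and 5.83 CPM. Genes of the dissociation stress response were at 10241 and 7615 CPM in the tumours against 19509 and 17753 CPM in hyperplasia. The part of these in the result was not tested.

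Some genes of the pathway itself were called in the Wnt1 libraries. Of all genes, 14.0% were called in either direction in hyperplasia against normal and 29.3% in tumour against hyperplasia. No ligand gene had enough counts to test, with 0 and 3 Ifnb1 UMIs in hyperplasia and 0 and 0 in the tumours. By limma, Ifnar1 (0.54), 1 of 5 tested receptor genes, was higher in hyperplasia than in normal glands. Irf2 (0.76), a repressor of interferon responses, was also higher, while 0 of 10 sensors and 0 of 5 inhibitors were called, with 2 and 1 at an unadjusted p under 0.05. In tumours against hyperplasia Ifnar1 (0.44), 1 of 5 tested receptor genes, was higher. So were the adaptor Tmem173 (0.92) and Tlr7 (4.02), 2 of 10 tested sensors and adaptors. Tlr7 had 0 and 1 UMIs in hyperplasia and 18 and 23 in the tumours. Irf2 (-0.63), Irf8 (-1.69) and the DNA sensor Cgas (-0.996) were lower, and 0 of 5 inhibitors were called, with 1 at an unadjusted p under 0.05.

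The separate list of interferon-induced genes had more calls lower than higher in both comparisons. Of 46 tested, 14 were lower in hyperplasia than in normal glands and 2 higher by limma, with a median of -0.66. Of all genes 6.29% were called lower and 7.70% higher. The largest falls were Ccl5 (-4.35), Oas1g (-3.19) and Epsti1 (-3.14), all from few counts. Ccl5 had 175 and 81 UMIs in the puberty and adult libraries and 3 and 9 in hyperplasia. Oas1g had 120 and 264 against 19 and 24 UMIs, and Epsti1 31 and 36 against 2 and 6 UMIs. The 2 rises were Ifitm1 (2.30) and Psmb9 (0.82). Against hyperplasia, 16 were lower in tumours and 2 higher (13.9% and 15.4% of all genes), with a median of -0.66. The largest falls there were Ifitm1 (-3.34), Ifi207 (-2.96) and Tgtp2 (-2.95) and the rises Epsti1 (2.57) and Ifi27 (0.60). Epsti1 had 30 and 43 UMIs in the tumours.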

How the data were processed

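Droplet libraries of sorted mouse mammary stromal cells were made with 10x Genomics 3′ chemistry. The authors ran Cell Ranger 6.1.2 with mm10 (submitters' processing notes) and deposited filtered UMI counts per gene and barcode. From these counts, fibroblast barcodes were chosen by the stated rule and summed per library. No doublet caller was run, and the exclusion genes stood in for it. Placebo and MPA+E libraries were compared with edgeR 4.0.16 (quasi-likelihood, TMM), and normal, hyperplasia and tumour libraries with limma 3.58.1 (voom), as fits over all genes with Benjamini-Hochberg adjustment. Standard errors of edgeR were taken from the fold change and F statistic. Genes with low counts were removed with filterByExpr. DESeq2 1.42.0 served as an alternative, in R 4.3.3. Both fits were also run on simulated counts with the same spread for all genes, a simpler case than the real counts. The calls do not rest on that run. The labels pair a hyperplastic gland and a tumour with each of the 2 Wnt1 mice (correlation of their deviations 0.0954 over 16001 genes). P-values of fits without a block measure the spread between libraries, of which each C57BL/6 one pooled 2 females. In fits with a library or replicate block, they measure the spread left after the block. The normal group joins the puberty and adult stages, so its spread includes the difference between these stages. The 2 Wnt1 mice differ in age, which the spread of the hyperplasia and tumour groups includes. Shares of cells carry exact binomial 95% intervals.

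The members, marker lists, pathway lists and tests were chosen with earlier results of these data known. Named are all members called in a comparison, those beyond 1 log2 unit or 2-fold, and full values for the 3 largest rises and falls and for Stat2, Irf7, Irf9, Isg15, Usp18, Ifit3, Bst2 and Ifi202b. Stages were compared by ratio, with 1 library each. Mx1 and Mx2 were not analysed here, and counts over the list of kinases and factors are not reported here. The alternatives were other tools, scalings and filters, leaving out each library, single gates, and cell filters. Adding the adult to placebo and some single-gate fits were chosen after seeing the data.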

Additional observations from a re-analysis of the deposited data

Results flagged for a closer look

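For 3 members the MPA+E effect differed between fibroblast gates by a test of the difference itself, the log2 fold change in the progenitor gate less the mean of those in the lobular and adipogenesis-regulatory gates. The difference was -1.07 ± 0.09 (SE, edgeR adjusted p = 0.000292) for Ifi27l2a, -1.12 ± 0.20 (SE, edgeR adjusted p = 0.0189) for Slfn2 and -0.76 ± 0.12 (SE, edgeR adjusted p = 0.00914) for Plac8, over 2 libraries per arm. Slfn2 was at 24.6 and 20.4 CPM under placebo and 75.2 and 79.0 CPM under MPA+E in the progenitor gate, and at 3.77 and 4.92 against 45.6 and 45.1 CPM in the lobular gate. Plac8 was at 689 and 717 CPM under placebo and 2197 and 2542 CPM under MPA+E in the progenitor gate, and at 138 and 158 against 1264 and 1961 CPM in the lobular gate. In the adipogenesis-regulatory gate Slfn2 was at 4.76 and 6.84 CPM under placebo and 34.0 and 27.2 CPM under MPA+E. Plac8 was at 388 and 483 against 1158 and 1415 CPM there, a smaller rise than in the progenitor gate. The difference called for Plac8 thus rests on the lobular gate. In all 3 gates each MPA+E library was above each placebo library for these genes. The other 37 of 40 members tested were not called, and their differences ran from -0.66 to 0.83. The gates were set with marker genes that do not include members.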

How the results depend on the processing

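Values that moved past 1.5 times the number of members called are given here. Under MPA+E, 32 members became 16 with the adult library added to placebo, and 6 to 35 when 1 library was left out. Between hyperplasia and normal glands, 22 became 9 with placebo added to normal, and 0 to 33 when 1 library was left out. Between tumour and hyperplasia, 21 became 10 with only the 4 libraries compared, 13 with the progenitor gate only, and 0 to 31 when 1 library was left out. Over the gates, 126 calls became 83 with the 5 stage libraries only. In pericyte-like barcodes, 13 became 27 without a filter on low counts, 28 with the replicate block and 19 to 30 when 1 library was left out. The difference between arms in the share of fibroblasts with 5 or more members, 34.5 percentage points, became 17.6 at 3 or more members, 42.9 at 8 or more, 8.75 without thinning, 41.4 at 1000 UMIs and 41.9 without the 3 members of highest mean CPM. The cause was not tested where the alternative did not itself remove libraries, genes or cells. Directions turned in at least 1 alternative for 1 of 41 members under MPA+E (Ifi202b), 4 in hyperplasia (Ifi203, Gbp2, Irf9 and Parp14) and 7 in tumours (Zbp1, Oas2, Bst2, Slfn2, Dhx58, Ifi35 and Ifi27l2a), of which Ifi27l2a had been called. Ifi202b under MPA+E was at -0.47 with limma-voom, -2.51 (without MPA+E 2) to 1.41 when 1 library was left out and -0.39 in the progenitor gate. Irf9 in hyperplasia was at 0.0069 without scaling, 0.05 without the adult, and -0.27 to 0.20 (without hyperplasia 2) over the libraries left out. Bst2 in tumours was at -0.13 to 0.0089 (without tumour 2) when 1 library was left out and 0.76 in the ECM remodelling gate, where it was called (limma adjusted p = 0.0147). For the remaining values of single named members, 476 kept their direction and side of the threshold, 84 lost the call and 6 gained it. With a replicate block, 39 members were called under MPA+E, and with the mouse as replicate block 28 in the tumours. The hormone libraries share numbers only, with a correlation of deviations of 0.396 over 15642 genes. All genes called under MPA+E numbered 678, and 1358 with DESeq2, 2451 with the block, 1240 in the progenitor gate, 224 in the lobular gate, 309 with the adult added and 22 and 42 without placebo 1 and placebo 2. An arm left with 1 library was assumed to vary like the other groups. Depth limits members at under 1 CPM, such as Ifi202b in C57BL/6 glands and Ifi44 in the Wnt1 libraries, and 2 libraries per group limit all tests.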

Other observations

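Ifit3 was detected more often in cells that also held an Isg15 UMI. No other pair of members was examined, and cells of all gates were pooled. At 2000 UMIs, Ifit3 was detected in 53.2 and 52.5% of MPA+E fibroblasts with an Isg15 UMI and in 15.8 and 13.2% of those without, and in 20.9 and 23.3% against 4.02 and 3.19% under placebo. A median of 10 and 9 members was detected per MPA+E fibroblast and 4 and 4 per placebo fibroblast.

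The virgin glands of the same age differed among themselves. Over 40 members, the highest of the adult and placebo libraries was a median of 1.80 times the lowest, the adult was highest for 31, and 18 were at 2-fold or more. Oas1a was at 22.5 CPM in the adult and 4.68 and 3.02 CPM under placebo, while Irgm1 went the other way, at 32.7 CPM against 221 and 158 CPM. With 1 adult library, a difference between the placebo pellet and no pellet and the spread between libraries cannot be told apart.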
